A study of Mus musculus with 1 sample.

Results

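The genes described here are the insulator factor Ctcf and 9 genes of the cohesin ring and of the proteins that load it on DNA and take it off. They were chosen by name, as the rows of the count table whose symbol was Ctcf, Smc1a, Smc3, Rad21, Stag1, Stag2, Nipbl, Wapl, Pds5a or Pds5b, and all 10 of the 10 were found among the 32285 genes of the table. The cells were lineage-negative, Kit-positive bone marrow progenitors of the C57BL/6 strain, labelled WT_HSPC, taken 8 weeks after injection of pIpC, a double-stranded RNA that induces interferon. In this control group Brd9, a subunit of the non-canonical BAF chromatin remodelling complex, was floxed (Brd9fl/fl) and not deleted, since no Cre was present. The labels give a CD45.2(+) donor and a CD45.1(+) CD45.2(-) recipient, while the study's methods describe primary mice, and which of these applied was not settled. One library was available for the group, so no test between animals was possible: every interval below is a 95% interval for counting error only, and UMIs of cells from the same animal are not replicates.

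Cohesin is a ring of SMC proteins closed by a kleisin that holds sister chromatids together from replication to anaphase and that extrudes loops of chromatin in interphase. Loop extrusion stalls at sites bound by CTCF, which places loop anchors and domain boundaries there. The ring exists with either STAG1 or STAG2 as a further subunit, and mutations of STAG2 and of other cohesin genes recur in myeloid leukaemia. The study asked, among other questions, how loss of BRD9 affects CTCF-bound sites and the genes of this machinery in blood progenitors, and only its control cells are described here.

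The 250 bases before the annotated start are shown for 4 of the genes, since their levels followed the cell cycle to different degrees in the results given further on. RefSeq sequences of build GRCm38.p6 matched 7 of the 10 genes; Rad21, Stag2 and Nipbl had no entry. Each is written 5′ to 3′ on the gene's strand, which was the plus strand for these 4, and capitals mark every match on either strand to letters bound by E2F factors (TTCCCGC or TTGGCGC), to the cell cycle homology region CHR (TTTGAA), to a CCAAT box (CCAAT) and to GATA factors (AGATAA or TGATAA). The motifs were chosen after levels had been seen. The Ctcf window lies at chr8:105636288-105636537, the Stag1 window at chr9:100643198-100643447, the Pds5b window at chr5:150673577-150673826 and the Smc3 window at chr19:53600146-53600395.
Ctcf: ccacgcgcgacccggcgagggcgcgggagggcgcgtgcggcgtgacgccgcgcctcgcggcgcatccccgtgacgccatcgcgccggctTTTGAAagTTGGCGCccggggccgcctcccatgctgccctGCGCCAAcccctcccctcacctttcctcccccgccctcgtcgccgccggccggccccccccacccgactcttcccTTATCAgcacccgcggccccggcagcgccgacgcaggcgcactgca
Stag1: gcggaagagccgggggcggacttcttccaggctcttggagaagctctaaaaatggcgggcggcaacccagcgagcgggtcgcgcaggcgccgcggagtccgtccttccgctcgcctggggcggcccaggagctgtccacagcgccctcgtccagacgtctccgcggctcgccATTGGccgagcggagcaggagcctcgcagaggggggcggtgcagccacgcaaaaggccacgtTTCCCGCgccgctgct
Pds5b: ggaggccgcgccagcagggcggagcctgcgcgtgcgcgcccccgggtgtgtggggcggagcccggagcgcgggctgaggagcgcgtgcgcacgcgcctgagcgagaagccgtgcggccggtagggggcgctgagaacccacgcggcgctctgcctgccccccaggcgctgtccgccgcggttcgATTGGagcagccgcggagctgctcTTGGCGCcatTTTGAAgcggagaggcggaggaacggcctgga
Smc3: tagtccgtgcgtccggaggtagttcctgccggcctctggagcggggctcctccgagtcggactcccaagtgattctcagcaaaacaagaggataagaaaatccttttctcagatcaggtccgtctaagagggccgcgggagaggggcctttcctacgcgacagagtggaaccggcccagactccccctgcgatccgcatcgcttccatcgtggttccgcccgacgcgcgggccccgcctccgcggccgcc
The Ctcf window held 2 E2F matches, 1 CHR match and 1 GATA match. The Stag1 window held 1 E2F match and 1 CCAAT box, the Pds5b window 1 of each of E2F, CHR and CCAAT, and the Smc3 window none of the 4 motifs. E2F letters occurred in 4 of the 7 windows (Ctcf, Stag1, Pds5a and Pds5b) and in 5.62% of 32851 promoters of the same length. CHR letters occurred in 2 of 7 and in 16.0% of all, CCAAT in 4 of 7 and in 33.8% of all, and GATA letters in 1 of 7 and in 16.6% of all. TTGGCGC and the reverse of CCAAT can share letters, and no matches overlapped in the 4 printed windows. A match of letters is a description and not a measured binding site. The RefSeq start used for Stag1 lies downstream of the first base of the gene in GENCODE, chr9:100597798, so the printed Stag1 window lies inside the GENCODE gene. The Pds5b window also runs past the GENCODE start of Pds5b, chr5:150673739.

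The library held 8817 barcodes and 167452386 UMIs, each UMI standing for 1 captured RNA 3′ end. The study's own filter on UMIs, genes and mitochondrial share kept 7645 barcodes (86.7%), and the 7546 cells with at least 5000 UMIs were used, at a median of 18851 UMIs and 4187 genes per cell. Kit, the receptor used in the sort, was read at 87.9 CPM, the UMIs of a gene per 1000000 UMIs (95% interval 86.4 to 89.4), over these cells. Cells were placed in classes by gates on fixed marker lists, each asking for a set number of marker UMIs in a cell thinned to 5000 UMIs and for low counts on the other lists. Of the cells used, 5558 (73.7%) fell in 7 gates of at least 50 cells: 628 stem-like, 173 lymphoid-primed-like, 793 granulocyte-monocyte-like, 569 neutrophil-like, 1602 monocyte-like, 554 megakaryocyte-like and 1239 erythroid-like. Another 1874 cells were in no gate, 1125 of them with more than 1 list positive, and 114 cells were in gates too small to describe. The gates differed in depth and in cycling: the median was 8354.5 UMIs in stem-like cells, of which 86.1% were called G1, and 32012 UMIs in erythroid-like cells, of which 10.8% were. The median gene was also not at the same CPM in every gate. Over the 12941 genes tested its ratio over other gated cells was 0.903 in granulocyte-monocyte-like, 0.886 in monocyte-like and 1.08 in lymphoid-primed-like cells. The medians of the other gates are given below. Among G1 cells 10995 genes were tested, and the median ran from 0.704 in the neutrophil-like to 1.21 in the stem-like gate.

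Over all cells used the 10 genes ranged from 54.6 CPM (53.4 to 55.8) for Pds5b to 281 CPM (278 to 284) for Smc1a. These are counts of captured 3′ ends, not divided by transcript length, so they do not rank the genes by RNA abundance. Every one of the 10 genes had its lowest CPM in the neutrophil-like gate. For Smc3 the step to the next gate, the stem-like one, was 1.08-fold (0.998 to 1.18) and within counting error. Among G1 cells the lowest gate was the granulocyte-monocyte-like one for Smc1a and the neutrophil-like one for the other genes. The gate of the highest CPM was the megakaryocyte-like gate for 5 genes (Ctcf, Stag1, Stag2, Pds5a and Pds5b), the erythroid-like gate for 3 (Smc3, Rad21 and Wapl), the stem-like gate for Smc1a and the lymphoid-primed-like gate for Nipbl. The span from the lowest to the highest gate ran from 1.58-fold for Ctcf to 3.13-fold for Wapl and for Pds5b.

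**Figure D1:**
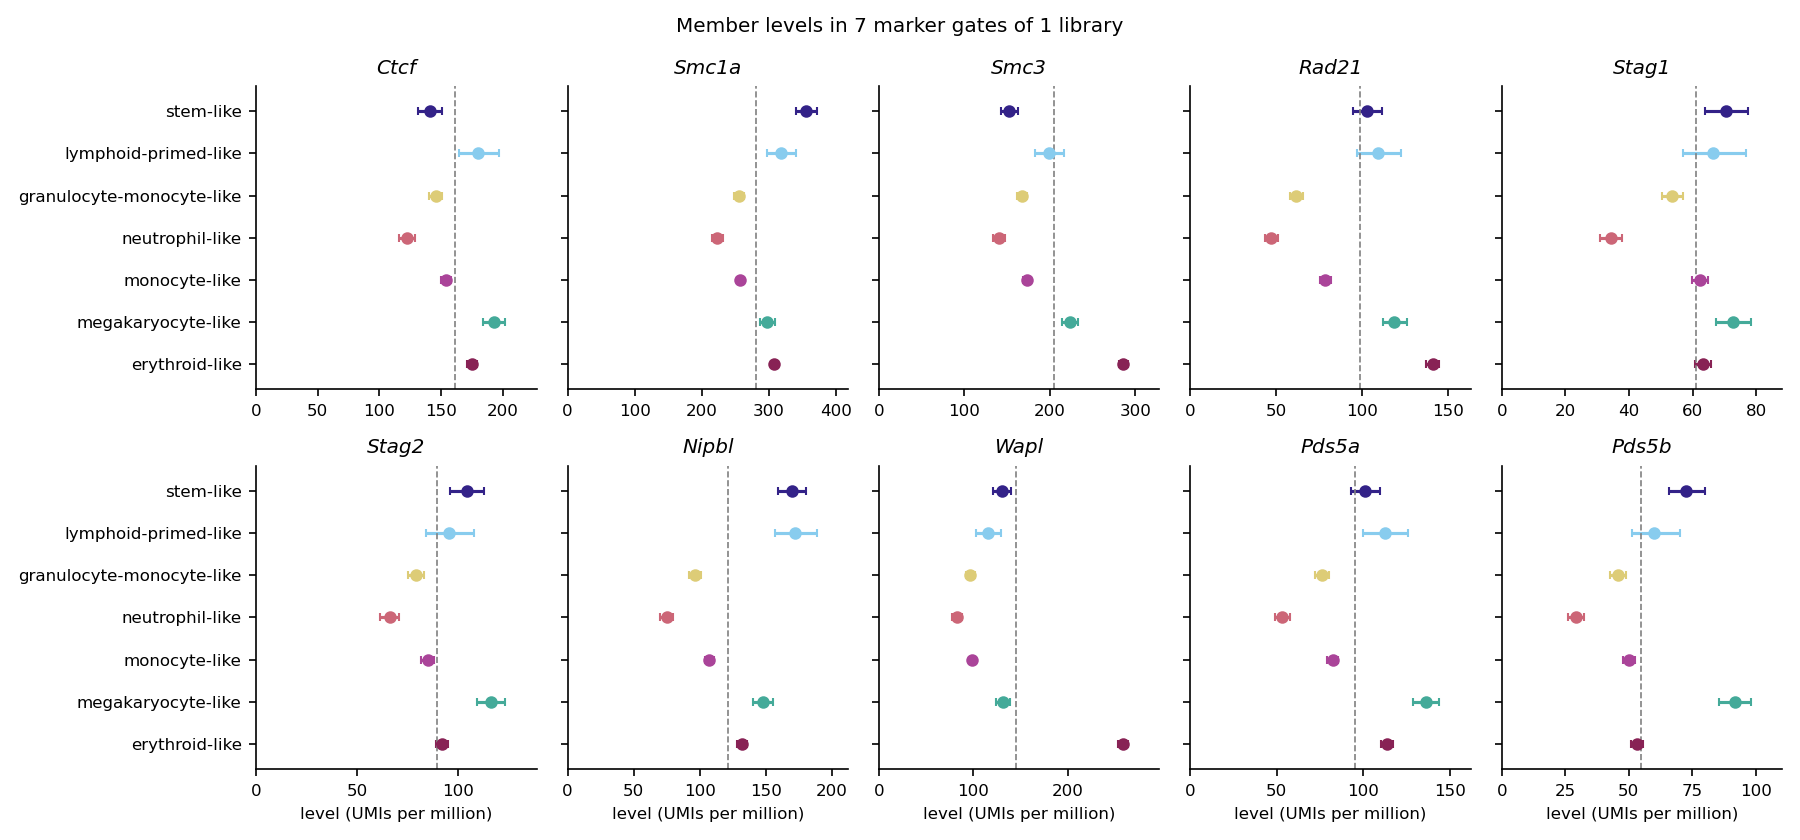
Level of each gene (CPM, 1 panel per gene, axes starting at 0) in the 7 marker gates of the library. Points are gate sums, bars are 95% Poisson intervals for counting error only, and the dashed line is the level over all cells used. The neutrophil-like point is the lowest in all 10 panels, and the erythroid-like point stands apart to the right for Wapl, at 259 CPM.

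Ctcf encodes the zinc finger protein that marks loop anchors. Its CPM was 193 (184 to 202) in megakaryocyte-like cells, 180 in lymphoid-primed-like, 175 in erythroid-like, 154 in monocyte-like, 146 in granulocyte-monocyte-like, 141 in stem-like and 122 (116 to 129) in neutrophil-like cells. Neighbours among the first 3 gates of this order differed by no more than counting error. The intervals of the megakaryocyte-like (184 to 202) and erythroid-like (171 to 179) gates did not overlap, however. The step from erythroid-like to monocyte-like, 1.13-fold (1.09 to 1.18), was larger than counting error. Relative to the other gated cells Ctcf stood at a ratio of 0.880 (0.820 to 0.943) in the stem-like gate, where the median gene stood at 1.27, so that Ctcf was at 0.694 (0.647 to 0.744) of the median gene. Among G1 cells alone the stem-like ratio was 1.03 (0.933 to 1.13), or 0.847 of the median gene.

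Smc1a and Smc3 encode the SMC arms that form the body of the ring. Smc1a was read at 356 CPM (341 to 371) in stem-like cells, 319 in lymphoid-primed-like, 308 in erythroid-like, 298 in megakaryocyte-like, 257 in monocyte-like, 256 in granulocyte-monocyte-like and 223 (215 to 232) in neutrophil-like cells. Smc3 was read at 286 CPM (281 to 292) in erythroid-like cells, 223 in megakaryocyte-like, 199 in lymphoid-primed-like, 173 in monocyte-like, 168 in granulocyte-monocyte-like, 152 in stem-like and 141 (134 to 148) in neutrophil-like cells. The partners were thus ordered differently: the stem-like gate was the highest for Smc1a and second lowest for Smc3. Their ratios over other gated cells in that gate were 1.29 (1.24 to 1.35) for Smc1a and 0.724 (0.677 to 0.774) for Smc3, and among G1 cells 1.56 (1.46 to 1.65) and 0.829 (0.757 to 0.907).

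Rad21 encodes the kleisin that closes the ring and that separase cuts at anaphase. It was read at 141 CPM (137 to 145) in erythroid-like cells, 119 in megakaryocyte-like, 109 in lymphoid-primed-like, 103 in stem-like, 78.5 in monocyte-like, 61.6 in granulocyte-monocyte-like and 47.0 (43.2 to 51.1) in neutrophil-like cells. The highest and lowest gates differed 3.00-fold (2.75 to 3.28). Among G1 cells the span was 1.82-fold (1.37 to 2.41), with the stem-like gate highest.

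Stag1 and Stag2 encode the alternative subunits of the ring that contact CTCF. Stag1 was read at 72.7 CPM (67.3 to 78.3) in megakaryocyte-like cells, 70.4 in stem-like, 66.4 in lymphoid-primed-like, 63.2 in erythroid-like, 62.3 in monocyte-like, 53.6 in granulocyte-monocyte-like and 34.2 (31.0 to 37.7) in neutrophil-like cells. Neighbours among the first 5 gates of this order did not differ beyond counting error. The intervals of the megakaryocyte-like (67.3 to 78.3) and monocyte-like (59.7 to 65.0) gates did not overlap, however. The step from monocyte-like to granulocyte-monocyte-like cells was 1.16-fold (1.08 to 1.25). The next step from granulocyte-monocyte-like to neutrophil-like cells was 1.57-fold (1.39 to 1.76) for Stag1. Stag2 was read at 116 CPM (109 to 123) in megakaryocyte-like cells, 104 in stem-like, 95.5 in lymphoid-primed-like, 91.9 in erythroid-like, 84.8 in monocyte-like, 79.1 in granulocyte-monocyte-like and 66.0 (61.5 to 70.9) in neutrophil-like cells. The order of the gates was the same for both genes, and the last step was 1.20-fold (1.10 to 1.31) for Stag2.

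Nipbl encodes the loader that also drives loop extrusion. Its CPM was 172 (157 to 189) in lymphoid-primed-like and 170 (160 to 181) in stem-like cells, which did not differ beyond counting error, then 148 in megakaryocyte-like, 132 in erythroid-like, 107 in monocyte-like, 96.2 in granulocyte-monocyte-like and 74.9 (70.0 to 80.0) in neutrophil-like cells. Its ratio over other gated cells, 1.48 in both the stem-like and the lymphoid-primed-like gate, was 1.16 (1.09 to 1.24) times the median gene in the first and 1.37 times in the second.

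Wapl encodes the factor that opens the ring and releases it from chromatin. It was read at 259 CPM (253 to 264) in erythroid-like cells, 131 in megakaryocyte-like, 130 in stem-like, 116 in lymphoid-primed-like, 98.1 in monocyte-like, 96.8 in granulocyte-monocyte-like and 82.5 (77.4 to 87.9) in neutrophil-like cells. The erythroid-like gate stood 1.97-fold (1.85 to 2.09) above the next gate and 2.53-fold (2.46 to 2.60) above the other gated cells together, a ratio larger than that of 93.8% of genes tested. Among G1 cells the erythroid-like ratio of Wapl was 1.68 (1.47 to 1.91), from 183 against 109 CPM.

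Pds5a and Pds5b encode the paralogues that bind the ring and help both WAPL and the enzymes that lock it. Pds5a was read at 136 CPM (129 to 144) in megakaryocyte-like cells, 114 in erythroid-like, 112 in lymphoid-primed-like, 101 in stem-like, 82.2 in monocyte-like, 76.3 in granulocyte-monocyte-like and 53.1 (49.0 to 57.4) in neutrophil-like cells. Pds5b was read at 91.7 CPM (85.7 to 98.0) in megakaryocyte-like cells, 72.6 in stem-like, 60.0 in lymphoid-primed-like, 53.2 in erythroid-like, 50.2 in monocyte-like, 45.7 in granulocyte-monocyte-like and 29.3 (26.3 to 32.5) in neutrophil-like cells. The erythroid-like ratio over other gated cells was 1.34 (1.29 to 1.39) for Pds5a and 1.01 (0.954 to 1.06) for Pds5b. In megakaryocyte-like cells the ratios were 1.51 (1.42 to 1.60) for Pds5a and 1.85 (1.72 to 1.98) for Pds5b, and among G1 cells 1.45 (1.29 to 1.64) and 1.72, with a lower bound of 1.48. Pds5b lies on the same strand as the overlapping gene Gm43807, which is also in the table, and the split of UMIs between them was not tested.

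A difference of at least 1.5-fold over other gated cells was reached by few of the 10 genes outside the neutrophil-like gate, and the share of all genes tested that reached it is given beside each count. In the neutrophil-like gate 7 of 10 were lower and 0 higher, against 42.4% of all genes lower and 6.29% higher. These 7 were Smc3, Rad21, Stag1, Nipbl, Wapl, Pds5a and Pds5b, with ratios from 0.459 for Rad21 to 0.655 for Smc3. The median gene in that gate stood at 0.728, and relative to it Ctcf at 1.03 (0.975 to 1.09), Smc1a at 1.08 (1.03 to 1.12) and Stag2 (0.933 to 1.08) were not lower beyond counting error, while Rad21 at 0.630 (0.577 to 0.686) and Wapl at 0.718 (0.672 to 0.766) were the lowest. Among G1 cells 5 of 10 were at least 1.5-fold lower in neutrophil-like cells, against 46.3% of all genes.

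In the granulocyte-monocyte-like gate 2 of 10 were at least 1.5-fold lower (Rad21 at 0.594 and Wapl at 0.603) and 0 higher, against 20.8% and 6.07% of all genes. In the monocyte-like gate 1 of 10 was lower (Wapl at 0.571) and 0 higher, against 24.9% and 12.5%. Stag1 was at 1.06 (1.01 to 1.12) in monocyte-like cells, or 1.20 (1.14 to 1.26) times the median gene, and was the only one of the 10 above 1 there. In the stem-like gate 0 of 10 were higher and 0 lower, against 40.5% and 18.4% of all genes. The stem-like median gene stood at 1.27, and relative to it Smc1a stood at 1.02 (0.977 to 1.07), Stag1 at 0.937 (0.847 to 1.03) and Stag2 at 0.943 (0.868 to 1.02), all within counting error of it. Among G1 cells 3 of 10 (Smc1a, Rad21 and Nipbl) were at least 1.5-fold higher in stem-like cells, against 34.1% of all genes. In the lymphoid-primed-like gate 0 of 10 were higher and 0 lower, against 26.0% and 17.0%.

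In the megakaryocyte-like gate 2 of 10 were higher (Pds5a and Pds5b) and 0 lower, against 30.0% and 14.5% of all genes, with the median gene at 1.16. Pds5a, at 1.51, lay close to the limit and was under it in 6 of 11 alternatives. Relative to the median gene Pds5b stood at 1.59 (1.48 to 1.71) and Wapl at 0.742 (0.700 to 0.786), while Smc1a and Smc3, at 1.07 and 1.08 over other gated cells, were below it at 0.923 and 0.930. In the erythroid-like gate 3 of 10 were higher (Smc3, Rad21 and Wapl) and 0 lower, against 18.7% and 35.6% of all genes, with the median gene at 0.921. Wapl at 2.75 (2.67 to 2.83), Rad21 at 1.97 (1.90 to 2.05) and Smc3 at 1.80 (1.76 to 1.85) stood highest relative to the median gene there. Among G1 cells 1 of 10 was at least 1.5-fold higher in the megakaryocyte-like gate (Pds5b) and 1 of 10 in the erythroid-like gate (Wapl), against 15.0% and 15.2% of all genes. Depth and the share of cycling cells differed between these gates, and beyond the G1 values their part in the ratios was not tested.

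**Figure D2:**
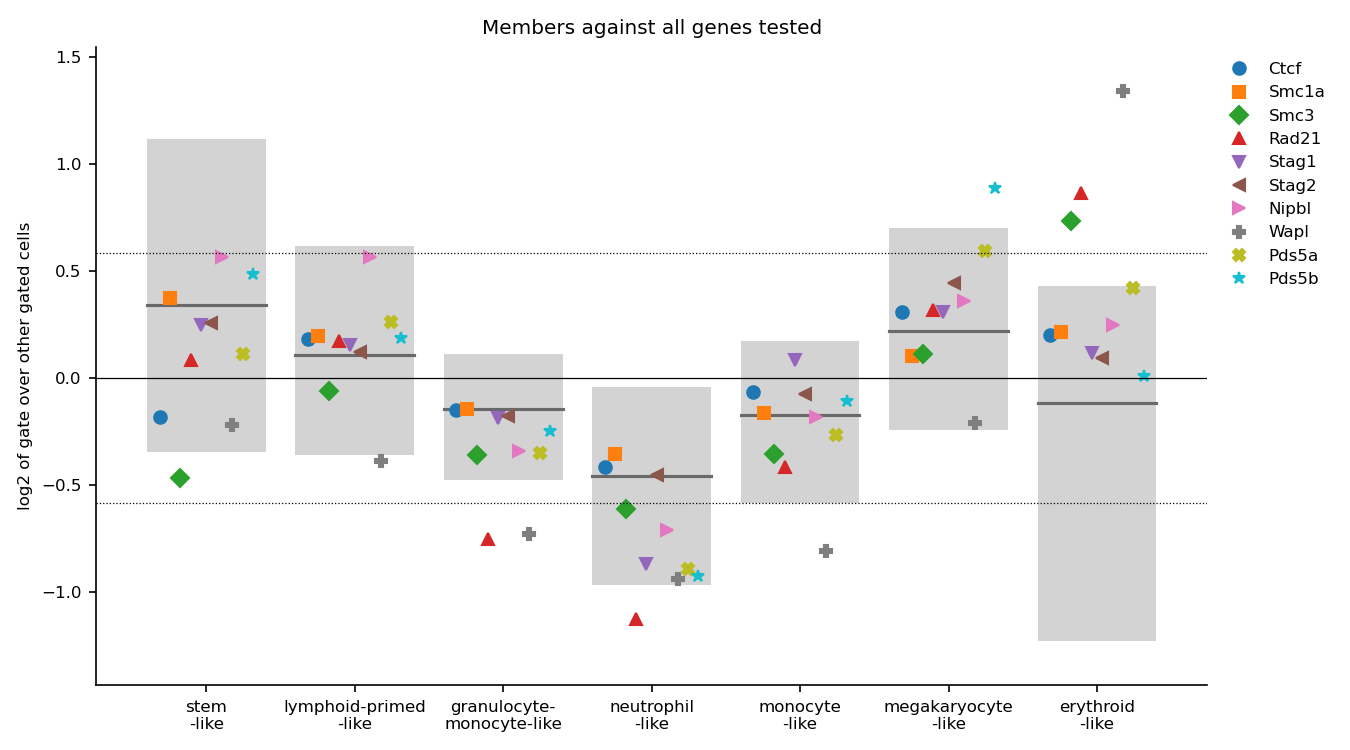
Log2 of the ratio of each gate over the other gated cells for the 10 genes (symbols) and for all 12941 genes tested (grey box, lower to upper quartile, with the median as a line). Dotted lines mark 1.5-fold. Most symbols lie within the grey boxes. Smc3 lies below the stem-like box, Rad21 lies below the neutrophil-like and granulocyte-monocyte-like boxes, Wapl lies below the granulocyte-monocyte-like, monocyte-like and lymphoid-primed-like boxes, Pds5b lies above the megakaryocyte-like box, and Wapl, Rad21 and Smc3 lie above the erythroid-like box.

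Cell cycle states were called from summed scores of S and G2/M genes in thinned cells, with the 10 genes left out of the lists, since Ctcf stands in the published G2/M list. There were 2246 G1, 1778 S and 3522 G2/M cells, and Mki67, a marker of cycling cells that was itself among the G2/M genes, was read at 34.4, 219 and 564 CPM in them. A score lay within 0.05 of the limit of G1 for 1026 cells (13.6%). The median UMIs per cell were 10257.5 in G1 and 23433 in G2/M cells, and CPM values are relative to these totals. The gates differed in their states, so for the 10 genes values within gates stand beside the pooled ones. For the other listed genes only pooled values are given.

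Rad21 was the gene of the 10 with the largest difference between states. It was read at 60.0 CPM (57.1 to 62.9) in G1, 76.6 in S and 120 (118 to 123) in G2/M cells, a G2/M over G1 ratio of 2.01 (1.90 to 2.11). The ratio exceeded 1 beyond counting error in 7 of 7 gates and ran from 1.33 (1.06 to 1.67) in neutrophil-like to 3.24 (2.38 to 4.49) in lymphoid-primed-like cells. In stem-like cells, where only 39 cells were called G2/M, Rad21 was at 248 CPM in G2/M and 83.4 CPM in G1 cells.

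Ctcf was read at 128 CPM (124 to 133) in G1, 137 in S and 182 (179 to 185) in G2/M cells. Its G2/M over G1 ratio was 1.42 (1.37 to 1.47) over all cells and was above 1 beyond counting error in 6 of 7 gates, from 1.37 in granulocyte-monocyte-like to 1.81 in stem-like cells. The gate without such a difference was the erythroid-like one, at 1.11 (0.978 to 1.28). G2/M cells also held more Ctcf than S cells in 7 of 7 gates, at ratios of 1.23 to 1.74, and over all cells at 1.33 (1.28 to 1.37), while the pooled S over G1 ratio was 1.07 (1.02 to 1.12).

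Smc3 differed earlier in the cycle than Ctcf. It was read at 149 CPM in G1, 216 in S and 218 in G2/M cells, with an S over G1 ratio of 1.45, an interval that began at 1.39, and a G2/M over S ratio of 1.01 (0.984 to 1.04). Within gates the S over G1 ratio had a median of 1.28. It was above 1 beyond counting error in 5 of 7, the highest being 1.90 (1.59 to 2.26) in stem-like cells. The G2/M over G1 ratio of Smc3 was 1.46 over all cells. Within gates it ran from 1.14 to 1.58, with a median of 1.21, and was above 1 beyond counting error in 7 of 7. Its G2/M over S ratio was below 1 beyond counting error in 2 of 7 gates and above it in 0. The part of the gates in the pooled ratios was not tested. Smc1a was read at 240, 271 and 298 CPM in G1, S and G2/M cells, and its G2/M over G1 ratio exceeded 1 beyond counting error in 7 of 7 gates, from 1.15 to 1.48.

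Stag1 stood at 56.1, 62.0 and 62.3 CPM in G1, S and G2/M cells and Stag2 at 88.6, 92.1 and 89.1 CPM. The G2/M over G1 ratio of Stag1 was 1.11 (1.05 to 1.18) over all cells and beyond counting error in 2 of 7 gates, stem-like at 1.64 (1.24 to 2.15) and megakaryocyte-like at 1.85 (1.52 to 2.27). That of Stag2 was 1.01 (0.960 to 1.05) over all cells, while within gates it ran from 0.857 to 1.44 and was above 1 beyond counting error in 3 of 7. Pds5a stood at a pooled ratio of 1.07 (1.02 to 1.12) and at 1.03 to 1.28 within gates, beyond counting error in 1 of 7. Pds5b stood at a pooled ratio of 1.01 (0.954 to 1.07), below all of its values within gates, which ran from 1.07 to 1.56 and were beyond counting error in 2 of 7.

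Nipbl was the gene of the 10 read lower in S than in G1 cells, at 108 against 136 CPM, a ratio of 0.789 (0.755 to 0.826). The median gene stood at 0.902 in S over G1, with quartiles of 0.680 and 1.14. Nipbl CPM also differed with depth, at 161 in cells of under 10000 UMIs and 115 in cells of 20000 UMIs or more. The part of depth in the difference between states was not tested. The S over G1 ratio of Nipbl was below 1 beyond counting error in 4 of 7 gates and above it in 0. Its G2/M over G1 ratio was 0.894 (0.861 to 0.928), or 1.03 (0.991 to 1.07) times the median gene, and within gates it ran from 0.830 to 1.14, above 1 beyond counting error in 2 of 7 and below it in 1. Wapl stood at 113, 130 and 162 CPM in G1, S and G2/M cells, a pooled G2/M over G1 ratio of 1.43 (1.38 to 1.49), but within gates the ratio was above 1 beyond counting error only in erythroid-like cells, at 1.46 (1.29 to 1.66). The median of the 7 gate ratios of Wapl was 1.11. The erythroid-like gate held 866 of the 3522 G2/M cells and 134 of the 2246 G1 cells and had the highest level of Wapl. Its part in the pooled Wapl ratio was not tested.

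Across states 1 of the 10 genes, Rad21, was at least 1.5-fold higher in G2/M than in G1 cells and 0 were lower, against 9.86% and 30.6% of 13058 genes tested. Between S and G1 cells 0 were higher and 0 lower, against 8.19% and 23.7% of 12587 genes. Smc3 lay close to the limit in both comparisons and passed it under some other ways of calling states. The median gene stood at 0.869 in G2/M over G1 and at 0.902 in S over G1. Relative to it Rad21 was at 2.31 (2.19 to 2.43), Smc3 at 1.68, Wapl at 1.65 and Ctcf at 1.63 in G2/M over G1. These values are pooled over gates that differed in their states. Within gates the median gene stood at 0.911 in erythroid-like cells and at 0.987 to 1.03 in the others. The median of the 7 gate ratios, not divided by the median gene, was 2.06 for Rad21, 1.51 for Ctcf, 1.21 for Smc3 and 1.11 for Wapl.

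**Figure D3:**
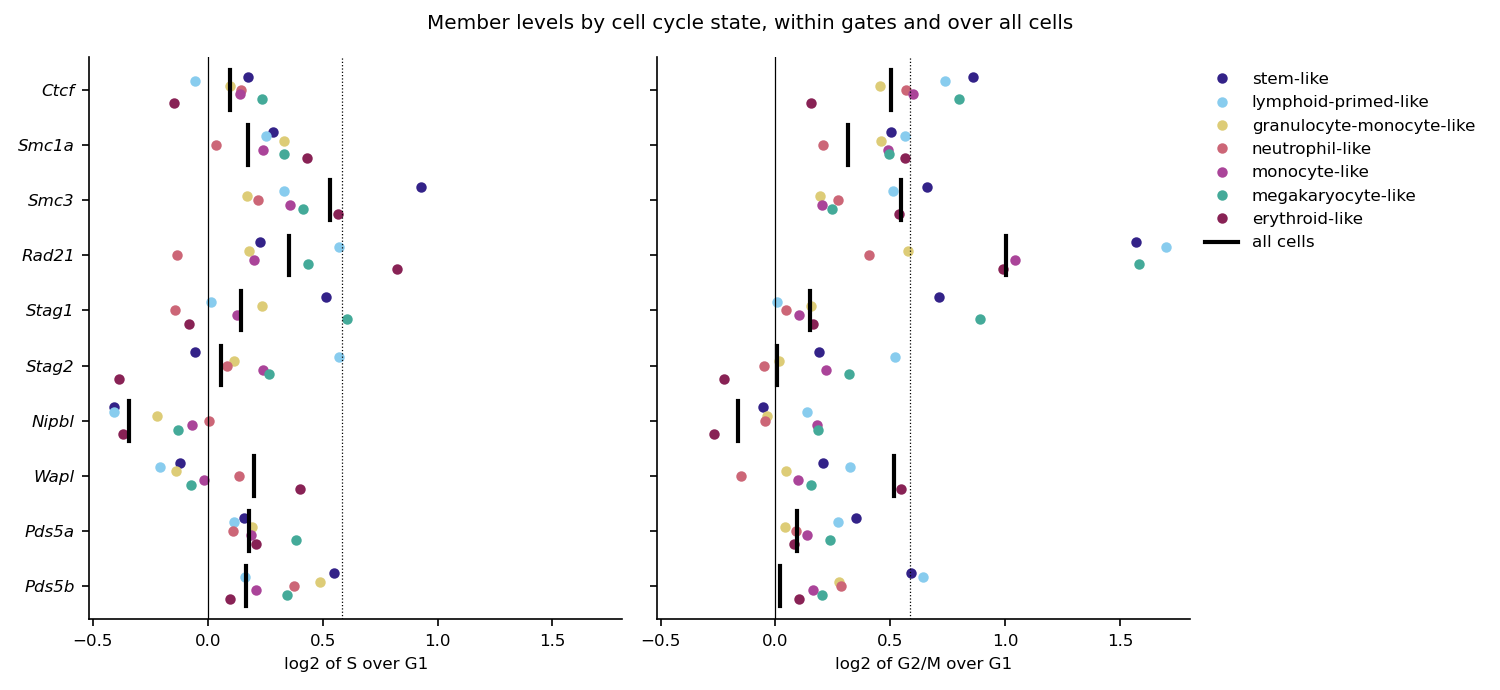
Log2 of S over G1 (left) and of G2/M over G1 (right) for the 10 genes, with a point for each of the 7 gates and a black line for all cells. The dotted line marks 1.5-fold. All 7 Rad21 points of the right panel lie above 0, while the Wapl line over all cells lies to the right of 6 of its 7 gate points.

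The Stag1 to Stag2 ratio was read within the same cells, so that the total UMI count of a group cancels out. It is a ratio of captured 3′ ends and not of protein or of rings. Over all cells Stag1 made up 40.5% (39.9 to 41.2) of the UMIs of both genes (9260 of Stag1 and 13593 of Stag2), a ratio of 0.681 (0.663 to 0.700) Stag1 UMIs per Stag2 UMI. The share was 40.3% (37.3 to 43.4) in stem-like, 41.0% (36.3 to 45.8) in lymphoid-primed-like, 40.4% (38.4 to 42.3) in granulocyte-monocyte-like, 42.4% (41.0 to 43.7) in monocyte-like, 38.5% (36.2 to 40.8) in megakaryocyte-like and 40.7% (39.5 to 42.0) in erythroid-like cells. The neutrophil-like gate was lower, at 34.1% (31.4 to 36.9), with 401 Stag1 and 774 Stag2 UMIs.

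The neutrophil-like Stag1 to Stag2 ratio of 0.518 was 0.748 (0.659 to 0.848) times that of all other gated cells and below each of the other 6 gates beyond counting error, with ratios of ratios from 0.705 to 0.829. The gate was singled out after its value was seen. Within states the ratio of ratios was 0.824 (0.622 to 1.09) in G1, 0.640 (0.487 to 0.836) in S and 0.780 (0.657 to 0.924) in G2/M cells. Against all other gated cells it thus lay within counting error in G1 alone, where 88 Stag1 and 170 Stag2 UMIs were read. In G1 cells the share was 34.1% in neutrophil-like, 32.6% in megakaryocyte-like and 34.9% in erythroid-like cells. There the neutrophil-like ratio was lower beyond counting error than in lymphoid-primed-like (ratio of ratios 0.581) and monocyte-like (0.655) cells. Against the stem-like, granulocyte-monocyte-like, megakaryocyte-like and erythroid-like gates it lay within counting error, at 0.827 to 1.07.

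By state, Stag1 made up 38.8% (37.3 to 40.3) in G1, 40.2% (39.0 to 41.5) in S and 41.2% (40.3 to 42.0) in G2/M cells, and the G2/M over G1 ratio of ratios was 1.10 (1.03 to 1.19). Within gates this ratio of ratios was above 1 beyond counting error in megakaryocyte-like cells, at 1.48 (1.16 to 1.91), and within it in the other 6 gates, at 0.701 to 1.44. In megakaryocyte-like cells the share was 32.6% (28.3 to 37.3) in G1, 38.0% in S and 41.8% (38.4 to 45.3) in G2/M cells. By depth, the share was 38.6% (36.2 to 41.0) in cells of under 10000 UMIs and 41.0% (40.2 to 41.8) in cells of 20000 UMIs or more, intervals that overlapped. G1 cells were the shallower ones. The part of depth in the difference between states was not tested.

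**Figure D4:**
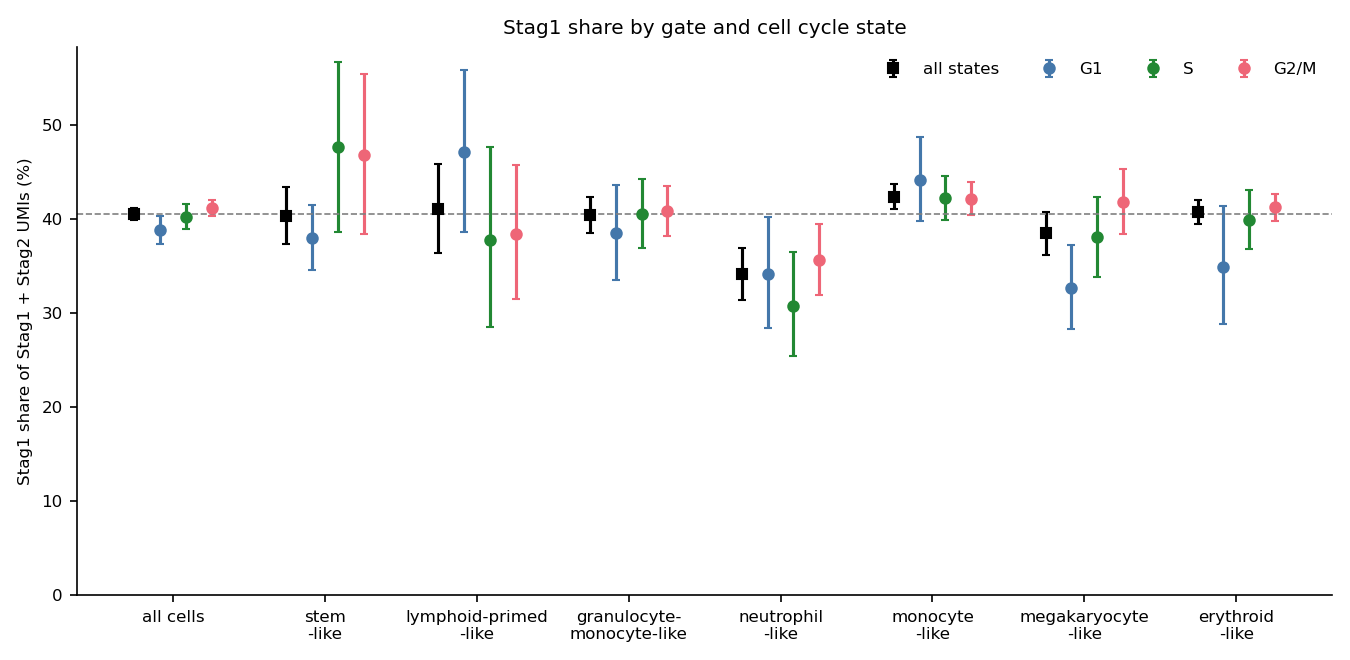
Stag1 share of the UMIs of Stag1 and Stag2 together (percent, axis starting at 0) over all cells and in 7 gates, for all states (squares) and for G1, S and G2/M cells (circles). Bars are 95% Clopper-Pearson intervals and the dashed line is the share over all cells, 40.5%. The neutrophil-like square lies below the line with its whole interval, and the megakaryocyte-like circles run from 32.6% in G1 to 41.8% in G2/M.

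Of 31 other genes of the machinery that were listed by name, 2 (Smc4 and Ncapd2) had served to call the states and were left out of the state counts. Between G2/M and G1 cells 26 of the remaining 29 had enough UMIs, and 10 were at least 1.5-fold higher and 3 lower, against 9.86% and 30.6% of all genes tested. Condensin, the SMC complex that compacts mitotic chromosomes, had 6 of 6 genes higher: Ncapg at 10.8-fold (9.06 to 12.9), Ncaph at 7.25, Smc2 at 4.44, Ncapg2 at 4.26, Ncapd3 at 2.16 and Ncaph2 at 1.74. Esco2, the acetyltransferase that locks cohesin on replicated DNA, stood at 15.2-fold (12.6 to 18.5), from 3.97 CPM in G1 to 60.3 CPM in G2/M cells. Of the genes that protect or cut the ring, Espl1 (separase) stood at 15.0-fold (11.0 to 20.9), Cdca5 (sororin) at 6.49 and Sgo1 (shugoshin) at 6.49, while Pttg1 (securin) stood at 1.01 (0.938 to 1.09). The lower ones were Esco1 at 0.662, the meiotic kleisin Rec8 at 0.604 and the zinc finger gene Vezf1 at 0.553. In the stem-like gate over other gated cells these stood at 1.87, 4.49 and 3.04, and Rec8 also stood at 5.58 in the erythroid-like gate. The part of the gates in these pooled state ratios was not tested. Rad21, at 2.01, thus had a smaller ratio than 5 of the 6 condensin genes counted and than Esco2, Espl1, Cdca5 and Sgo1.

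Between S and G1 cells 10 of 25 genes with enough UMIs were at least 1.5-fold higher, among them Esco2 at 10.1-fold, Ncapg at 6.23-fold and Smc6 at 1.67-fold, and 3 were lower, Hdac8 at 0.619, Rec8 at 0.499 and Vezf1 at 0.503. Of all genes tested 8.19% were higher and 23.7% lower. Mau2, the partner of NIPBL in the loader, stood at 0.767 (0.705 to 0.834) in S over G1, beside 0.789 for Nipbl. Hdac8 removes the acetyl mark from SMC3. Hdac8 and Mau2 stood at 1.96 and 1.53 in the stem-like gate over other gated cells. The part of the gates in their pooled state ratios was not tested. Of the germline paralogues, Rad21l was not seen and Ctcfl, a paralogue of Ctcf, had 0 UMIs in S and in G1 cells and 4 in G2/M cells.

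**Figure D5:**
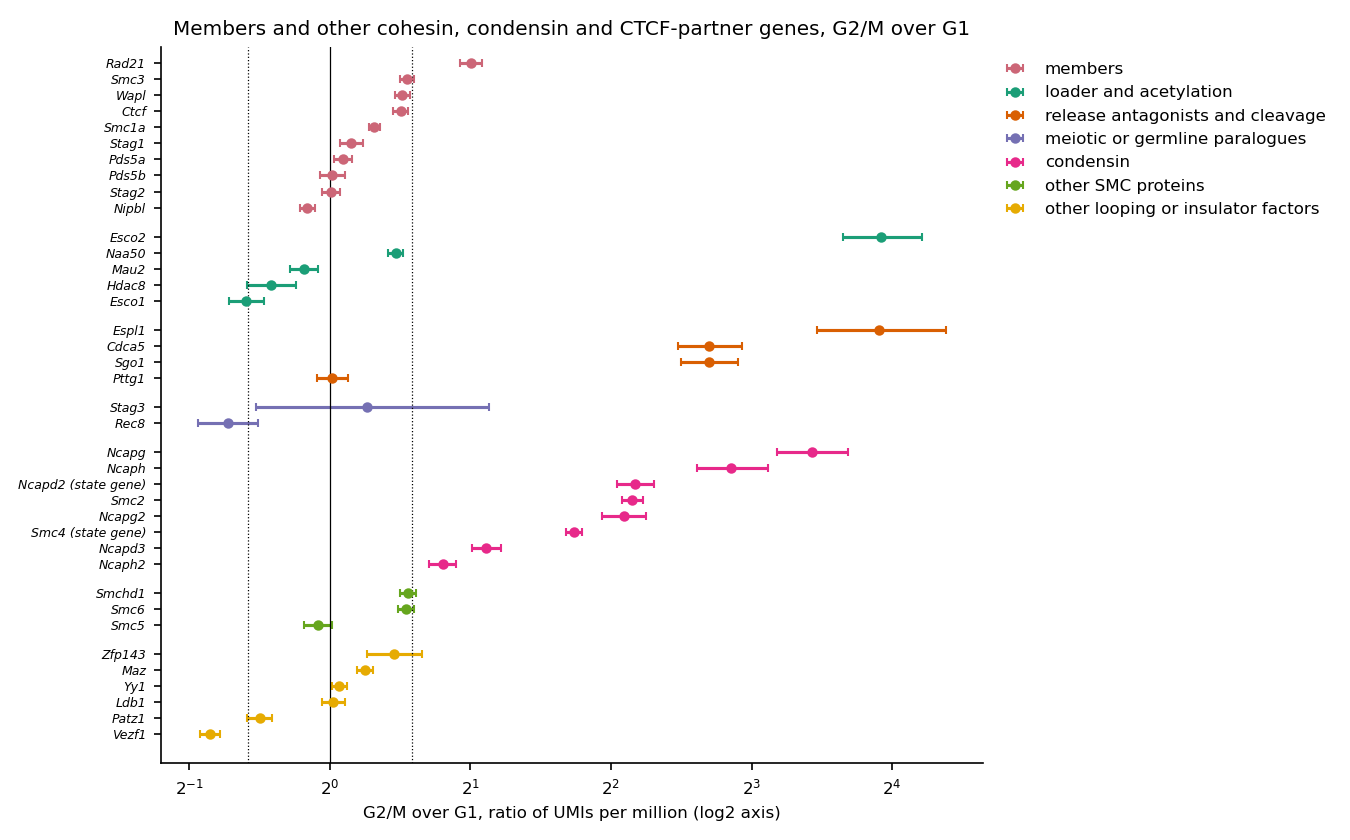
Ratio of CPM in G2/M over G1 cells (log2 axis) for the 10 genes and for the listed genes with at least 50 UMIs, with 95% intervals for counting error. Dotted lines mark 1.5-fold, and the 2 condensin genes used to call states are marked as state genes. Condensin genes and Esco2, Espl1, Cdca5 and Sgo1 lie to the right of all of the 10 genes but Rad21, which at 2.01 lies between Ncaph2 at 1.74 and Ncapd3 at 2.16.

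By gate, 7 of 8 condensin genes were at least 1.5-fold lower in neutrophil-like and 7 of 8 in stem-like cells, against 42.4% and 18.4% of all genes. In granulocyte-monocyte-like cells 4 of 8 were lower and in megakaryocyte-like cells 1 of 8, against 20.8% and 14.5%. In monocyte-like and lymphoid-primed-like cells 0 of 8 were lower, against 24.9% and 17.0%. In erythroid-like cells 8 of 8 were higher, against 18.7%. The share of cells called G2/M was 69.9% in the erythroid-like, 53.7% in the monocyte-like, 51.5% in the neutrophil-like and 6.21% in the stem-like gate. The part of the share of cycling cells in these counts was not tested. Over the 7 gates the genes whose log2(CPM + 10) followed one of the 10 most closely, among 9602 genes with at least 500 UMIs, were Ints4 (Pearson r = 0.987), Ppp2r1a (0.986) and Rcan1 (0.981) for Stag1. For Stag2 they were Gm45902 (0.994), Pds5b (0.992) and Akirin2 (0.992), and for Ctcf Lin9 (0.994), Hist1h3a (0.993) and Cdk2 (0.987). These 7 points share 1 library, and all of these genes were lowest in the neutrophil-like gate. With so few points a high r was common, as 549 genes exceeded 0.9 for Stag2, 223 for Stag1 and 95 for Ctcf.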

How the data were processed

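Single-cell RNA-seq of 1 library of sorted progenitors was analysed. According to the labels and methods, a 10x Chromium 3′ library was read against mm10 with Cell Ranger 6.0.2, and the deposited UMI counts, raw and integer, precede the study's filter. The labels also describe a bulk RNA kit. A library of deleted cells was not analysed here.

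Barcodes were kept at 1000 to 50000 UMIs, 1000 to 6500 genes and mitochondrial RNA below 7%. Those of at least 5000 UMIs were thinned to 5000 (seed 1) for gates and for cell cycle scores, made with scanpy 1.11.5 from 43 S and 53 G2/M genes over the genes seen in at least 5 cells. A gate needed 2 distinct markers, and its limit was set on marker UMIs with the 10 genes unread. Levels are UMIs of a gene over all UMIs of a group, unthinned. Intervals at 95% were exact (Poisson for levels, conditional binomial for ratios, Clopper-Pearson for shares, scipy 1.17.1) and cover counting error only. The interval code was tested on simulated sums. Genes with at least 50 UMIs over both groups were read against a fold of 1.5. Scrublet doublet calls (expected rate 6%) were kept and, in an alternative, removed.

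All 10 genes were named. Listed pathway genes were counted, and named where past 1.5-fold between states or at an end of their list. The 3 genes most like Stag1, Stag2 and Ctcf over the gates were named. The genes, lists and tests were chosen with earlier results of these data known.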

Additional observations from a re-analysis of the deposited data

How the results depend on the processing

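With 1 library no paired or replicate analysis was possible. Over 19 alternatives, 321 of 357 values of the main results and 815 of 994 ratios of single genes stayed within counting error of the value given or, for counts, within 1.5 times of it. The Stag1 share of the neutrophil-like gate ran from 32.9% to 35.4% over its 10 alternatives, its count of lower genes from 5 to 7, and the Rad21 ratio of G2/M over G1 from 1.87 to 2.22 over 12. The cause of the changes that follow was not tested beyond what each alternative is.

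With G1 cells only, the Stag1 share was 47.1% in lymphoid-primed-like, 44.2% in monocyte-like, 32.6% in megakaryocyte-like and 34.9% in erythroid-like cells. The counts of genes at least 1.5-fold higher were 3 in the stem-like, 1 in the megakaryocyte-like and 1 in the erythroid-like gate, and of lower genes 0 in the granulocyte-monocyte-like and 0 in the monocyte-like gate. Ratios over other gated cells that crossed 1 were those of Ctcf at 1.03 and Wapl at 1.18 in stem-like, Rad21 at 0.899 in lymphoid-primed-like, Smc1a at 0.991, Stag1 at 0.893 and Wapl at 1.14 in megakaryocyte-like, and Smc1a at 0.877 in erythroid-like cells.

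With graph clusters named from the same markers in place of gates, the naming rule named no cluster granulocyte-monocyte-like or neutrophil-like. Of the 569 neutrophil-like and 793 granulocyte-monocyte-like cells, 531 and 470 lay in clusters left unnamed. Unnamed clusters of 541 and 274 cells had S100a8 and S100a9 among their leading genes. Counts of lower genes were 1 in stem-like, 1 in lymphoid-primed-like and 3 in monocyte-like clusters, and that of higher genes 1 in megakaryocyte-like clusters. Stag1 was at 0.991 in stem-like, 0.885 in monocyte-like and 0.937 in erythroid-like clusters, Stag2 at 0.956 in the latter, Rad21 at 0.947 in lymphoid-primed-like and Smc3 at 0.993 in megakaryocyte-like clusters.

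With thinned UMIs, so that each cell weighed the same, the Stag1 share was 37.5% in granulocyte-monocyte-like cells, where 1 gene was at least 1.5-fold lower, 40.7% in monocyte-like, 34.8% in megakaryocyte-like and 38.4% in S cells, Wapl was at 1.02 in lymphoid-primed-like cells, and Smc3 exceeded G1 in G2/M cells of 2 gates. Nipbl or Pds5a, close to 1.5-fold, changed these counts of higher genes: 1 in the stem-like gate with another seed or stricter gates, 1 in the lymphoid-primed-like gate with a stricter cell filter, stricter gates, another seed or without mitochondrial, ribosomal protein and haemoglobin UMIs, and 1 in the megakaryocyte-like gate with no filter, with another seed, without those UMIs or without the 100 most abundant genes.

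By state, the count of higher genes in G2/M was 2 with no filter (Rad21 and Wapl). With state scores over all genes, over genes seen in 100 cells or with clear states only, it was 2 (Rad21 and Smc3), and with scores over all genes or clear states only the count in S was 1 (Smc3). With genes seen in 100 cells Stag1 was at 0.998 and Pds5b at 0.978 in S over G1. The Stag1 share of G1 cells was 37.0% with a stricter cell filter. The alternatives on state scores, clear states, wider gates and abundant genes were chosen after seeing the data. Depth limits the Stag1 share most in single states of the lymphoid-primed-like gate, with 40 to 73 Stag1 UMIs, and in S and G2/M cells of the stem-like gate, with 60 and 66.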

Other observations

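Basophil or mast-like and dendritic-like cells were too few in the gates used. With wider gates, set after seeing the data, 333 basophil or mast-like cells had a Stag1 share of 36.0% (95% interval 32.6 to 39.5) and 226 dendritic-like cells one of 41.8% (37.1 to 46.7). Of the listed genes outside the 10, Vezf1, a zinc finger gene, was 5.04-fold higher in megakaryocyte-like and 3.04-fold higher in stem-like than in other gated cells, and Patz1 was 2.14-fold higher in megakaryocyte-like cells. Ldb1, which joins GATA1 complexes at distant sites, was 2.84-fold higher in erythroid-like cells and at 0.327 in neutrophil-like cells. Rec8 was 5.58-fold higher in erythroid-like cells and 4.49-fold higher in stem-like cells, and at 0.0467 in monocyte-like cells (14 UMIs) and 0.0878 in neutrophil-like cells (7 UMIs).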
